A study of Homo sapiens with 8 samples.

Results

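HT144 is an established human cell line from a melanoma metastasis. It was profiled here with 2 forms of the histone methyltransferase SETDB1 set directly against each other. The arrays compared were 2 from cells labelled as overexpressing SETDB1 (SETDB1 OE) and 3 from cells labelled as overexpressing a mutant form (HC/KA-SETDB1 OE), 5 of the 8 arrays of the study. The other 3 arrays came from HT144 cells with an empty vector, and they serve below to show where the level of a gene lay without either construct. All 8 samples share the HT144 background, and every one was total RNA on 1 Illumina bead array. The residues changed in HC/KA, the promoter that drove the constructs and whether the cells were clones or pools are not given in the sources used here. The labels do not say that replicates came from different cultures, so a p-value covers the spread of these arrays and no more, and that spread may be technical. All genes with a detection p-value under 0.05 on at least 2 arrays were compared, each read from its brightest probe: 13974 of the 20044 genes with a symbol on the array. By their best probe, 1239 genes met this rule with exactly 2 arrays and 2305 missed it with 1.

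SETDB1 adds methyl groups to a lysine of histone H3 and so lays down a mark found on silent chromatin. Zinc finger proteins with a KRAB domain bring it to DNA through the corepressor TRIM28, where it silences retroelements, tissue-restricted genes and genes of the germ line. The gene is often amplified in melanoma. Setting a normal and a mutant form of an enzyme side by side asks which transcripts differ between cells given one and cells given the other.

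Levels below are log2 intensities after background correction and quantile normalization, and each difference is the SETDB1 OE mean minus the HC/KA-SETDB1 OE mean. The median raw intensity per array was 89.0 to 94.4, and 44.6% to 45.7% of probes were detected. The melanocytic markers MITF, TYR, TYRP1, PMEL, MLANA and SOX10 were detected on every array, and DCT was not analysed here. The SETDB1 OE arrays resembled each other (Pearson's r = 0.984 over genes). HC/KA-SETDB1 OE replicate 2 was closest to an array outside its group. It correlated more with empty vector replicate 3 (0.987) than with HC/KA-SETDB1 OE replicates 1 (0.961) and 3 (0.978). The value of 0.978 was still the highest between 2 arrays of the HC/KA-SETDB1 OE group. Replicate 1 of the same group was also closest to an empty vector array (0.970 with replicate 1), just above its own replicate 3 (0.969), and it had the lowest array weight (0.425). All arrays lay on 1 chip with each group at neighbouring positions, so position and group cannot be told apart.

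The transcript of SETDB1 itself did not follow the label of overexpression. Its probe read 8.0 and 7.66 in SETDB1 OE, 8.32, 8.42 and 9.0 in HC/KA-SETDB1 OE and 8.25, 8.19 and 8.04 with the empty vector. The SETDB1 OE arrays were thus the lowest of all 8, and HC/KA-SETDB1 OE replicate 3 was the highest. The difference of -0.75 (SE 0.24, adjusted p = 0.107) did not pass the test, although it did with array weights (adjusted p = 0.0474). Whether the probe lies in the part of the transcript that the constructs carry was not tested, and the groups are named below by their labels, as the arrays labelled SETDB1 OE and the arrays labelled HC/KA-SETDB1 OE.

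Between these 2 sets of arrays 606 of the 13974 genes differed at an adjusted p under 0.05, which is 4.34% of the genes tested. Of these, 290 genes (2.08% of those tested) rose in the arrays labelled SETDB1 OE and 316 genes (2.26%) fell. A rise of at least 2-fold was seen for 240 genes and a fall of at least 2-fold for 278, and 56 genes rose and 36 fell by at least 4-fold. The smallest called difference was 0.74 on the log2 scale. The arrays of the 2 groups did not overlap for any of the 606 genes, but neither did they for 5162 genes (36.9%) of all those tested. At an unadjusted p under 0.05 there were 3086 genes, against the 698.7 that number of tests would give by chance. Just inside the threshold were BEST1 (-1.47) and GRAMD2B (-0.85), and just outside it CCND1 (1.33) and DCAF11 (-1.05). The median difference over all genes was -0.01. Quantile normalization keeps this value small by construction, so it cannot show whether the groups were centred alike.

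**Figure D1:**
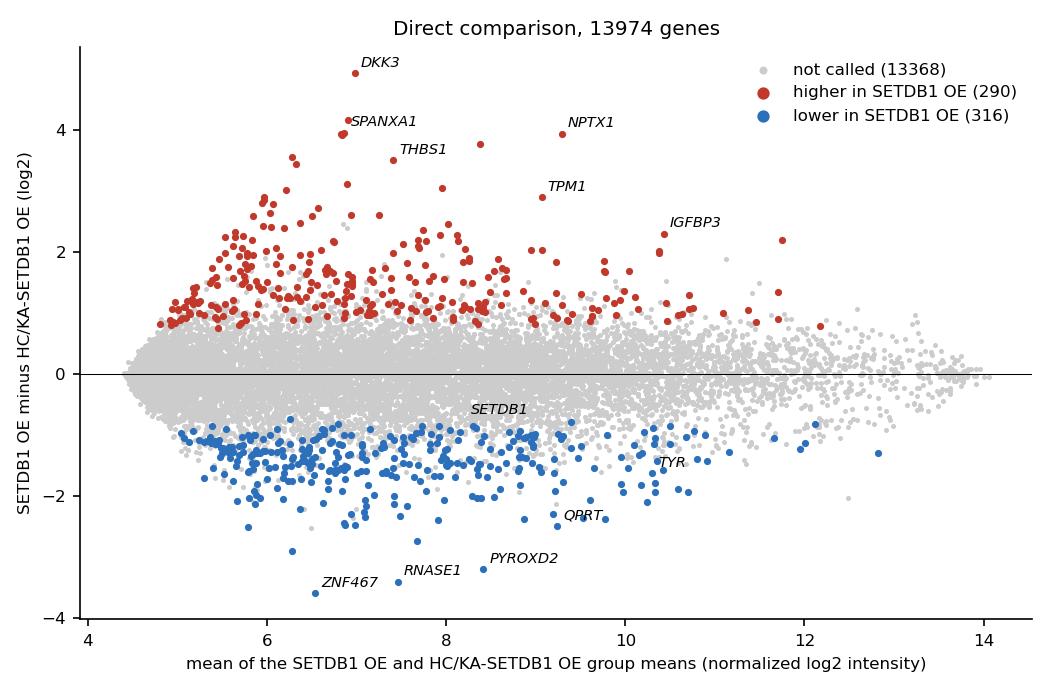
Difference in log2 intensity, SETDB1 OE minus HC/KA-SETDB1 OE (vertical axis) against the mean log2 intensity (horizontal axis), 1 point per gene, for the 13974 genes tested. Coloured points are the 290 genes that rose and the 316 that fell. DKK3 is drawn highest, though it was not detected in HC/KA-SETDB1 OE, and ZNF467 lowest at -3.59.

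The number of calls rested on few arrays. Without SETDB1 OE replicate 1 there were 41 calls (34 rose, 7 fell) and without replicate 2 there were 65 (42 rose, 23 fell). In each case the lone remaining array is assumed to vary like those of the other groups. Without HC/KA-SETDB1 OE replicate 3 the count was 153, and without replicate 2, the array that resembled the empty vector, it was 1315, of which 583 were among the 606. Leaving out HC/KA-SETDB1 OE replicate 1 gave 902 calls, of which 515 fell. Leaving out empty vector replicate 2 or 3, which enter this fit through the estimate of the spread (normalization, filter and probe choice were kept as set on all 8 arrays), gave 309 and 374. With all 3 empty vector arrays left out, 168 genes were called, all of them among the 606. For 170 of the 290 genes that rose and 212 of the 316 that fell, HC/KA-SETDB1 OE replicate 2 was the array of its group nearest to SETDB1 OE.

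**Figure D2:**
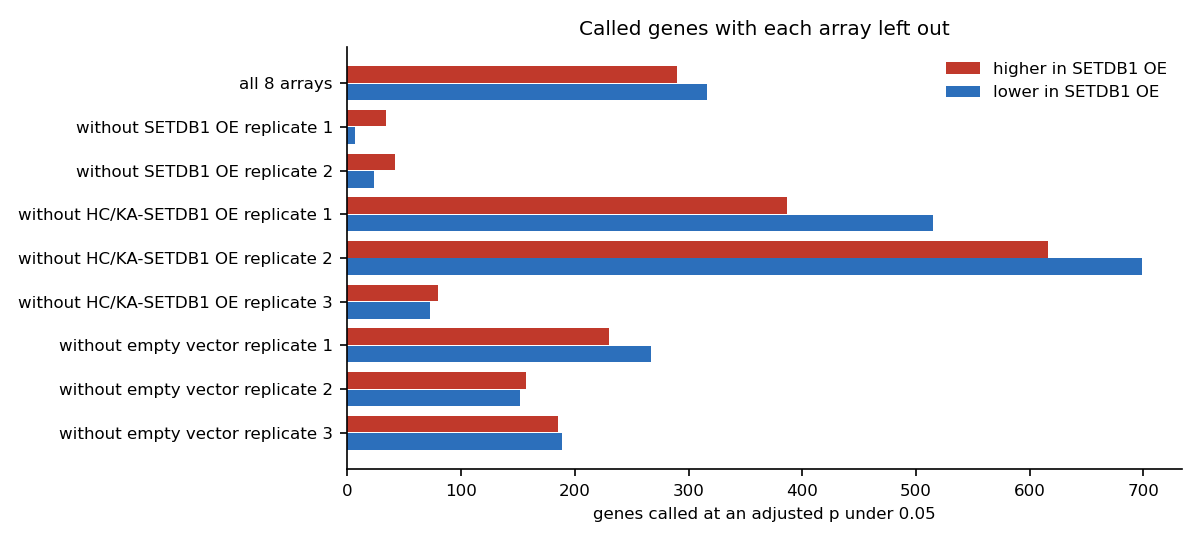
Number of genes that rose and that fell in SETDB1 OE relative to HC/KA-SETDB1 OE (horizontal axis) with 1 array left out at a time (rows). The counts run between 41 calls without SETDB1 OE replicate 1 and 1315 without HC/KA-SETDB1 OE replicate 2, beside 606 with all 8 arrays.

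A gene that differs between the 2 constructs can do so because one of them stood away from the empty vector or because both did, in opposite directions. The place of the empty vector mean was expressed as a share of the way between HC/KA-SETDB1 OE (0) and SETDB1 OE (1). Among the 290 genes that rose, the empty vector lay near HC/KA-SETDB1 OE (under 0.25) for 86 genes (29.7%), near SETDB1 OE (over 0.75) for 45 (15.5%) and between for 159 (54.8%), with a median of 0.43. Among the 316 that fell, these numbers were 65 (20.6%), 38 (12.0%) and 213 (67.4%), with a median of 0.46. For most called genes the empty vector therefore lay between the constructs. Choosing genes by a large difference between the constructs by itself favours this layout, and no share over all genes is given. These shares have no test, since the empty vector arrays also enter the comparisons of each construct with the vector, which share arrays with this one.

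**Figure D3:**
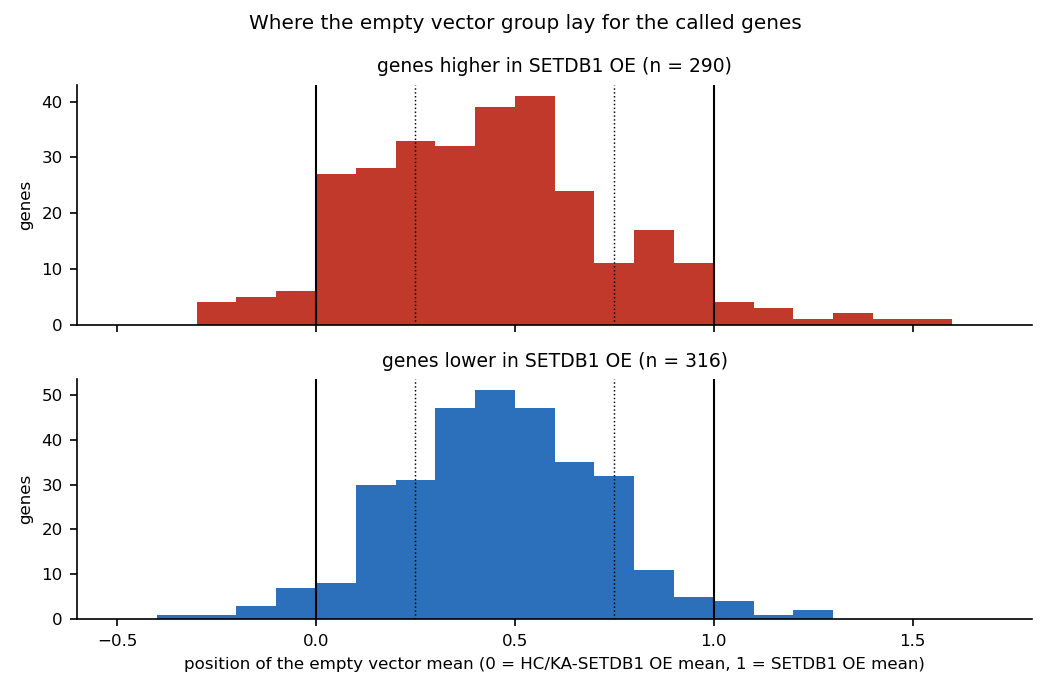
Number of called genes (vertical axis) by the position of the empty vector mean between HC/KA-SETDB1 OE at 0 and SETDB1 OE at 1 (horizontal axis), for genes that rose and genes that fell. Dotted lines mark 0.25 and 0.75, and the medians are 0.43 and 0.46.

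Among the genes high in SETDB1 OE alone was THBS1, the gene of thrombospondin-1, a glycoprotein secreted into the matrix. It read 9.41 and 8.93 in SETDB1 OE, 5.66, 5.91 and 5.38 in HC/KA-SETDB1 OE and 5.85, 6.27 and 5.41 with the empty vector. Both SETDB1 OE arrays stood above all 6 others, which ran together, and the difference of 3.51 (SE 0.28, adjusted p = 0.000311) amounted to 11.4-fold. MMP3, which encodes the matrix protease stromelysin, read 8.96 and 8.64 in SETDB1 OE, 4.75, 4.97 and 4.93 in HC/KA-SETDB1 OE and 4.62, 5.48 and 4.55 with the empty vector. Both SETDB1 OE arrays were again above the 6 others, with a difference of 3.92 (SE 0.28, adjusted p = 0.000209). SCG5, a chaperone of prohormone convertase in secretory granules, was detected on both SETDB1 OE arrays (7.76 and 7.04) and on none of the 6 others. It was at least 6.88-fold higher than in HC/KA-SETDB1 OE. For this bound each HC/KA-SETDB1 OE array entered with the higher of its lowest detected signal and the gene's own value. ANKRD1, a target of the YAP coactivators, was likewise seen at 6.91 and 6.81 in SETDB1 OE, on no HC/KA-SETDB1 OE array and on 1 empty vector array, and was at least 4.79-fold higher. CPA4, a secreted carboxypeptidase, read 8.61 and 9.36 in SETDB1 OE, 4.51, 5.45 and 4.49 in HC/KA-SETDB1 OE and 4.51, 6.70 and 4.59 with the empty vector. Replicate 2 was the highest in both HC/KA-SETDB1 OE and the empty vector, still below SETDB1 OE, with a difference of 4.17 (SE 0.59, adjusted p = 0.00705). NRP1, a coreceptor for semaphorins and VEGF, differed by 3.05 (SE 0.57), although its HC/KA-SETDB1 OE arrays spread between 5.18 and 7.68. Its second probe gave 0.78 (adjusted p = 0.265) and was not called. Of all 290 genes that rose, 33 were not detected on any HC/KA-SETDB1 OE array. Among all called genes, 7 passed the detection filter through the SETDB1 OE arrays alone and 1 through the HC/KA-SETDB1 OE arrays alone.

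The SPANX genes, a family of closely related genes on the X chromosome that are normally expressed in sperm cells, rose together. Of 12 listed members 6 were measured and 5 of them rose (83.3%, against 4.34% of all genes called), with a median over the 6 of 3.07. SPANXA1 read 8.98 and 8.71 in SETDB1 OE, 4.88, 4.81 and 4.96 in HC/KA-SETDB1 OE and 5.14, 6.0 and 5.16 with the empty vector. Empty vector replicate 2 was the highest of the 6 arrays outside SETDB1 OE and still far below it. The difference was 3.97 (SE 0.27) for SPANXA1 and 3.94 (SE 0.30) for SPANXA2. It was 3.13 (SE 0.27) for SPANXB1, 3.02 (SE 0.25) for SPANXC and 1.77 (SE 0.25) for SPANXD, with adjusted p-values between 0.000184 and 0.00692. Other SPANXD probes gave 2.19, which was called, and 1.17 and 0.51, which were not. SPANXN3, a more distant member and the sixth measured, had means of 8.30 in SETDB1 OE, 8.71 in HC/KA-SETDB1 OE and 7.66 with the empty vector, and a difference of -0.42 (adjusted p = 0.412). At least 4 of the 5 were called whichever array was left out.

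Because some of these genes are so alike, a probe named for one may bind the transcripts of several, and the 5 rises are not 5 independent measurements. The promoters show the degree of likeness and are printed for that reason, from 250 bases before to 50 bases after the start of the gene, from RefSeq on GRCh38.p14. SPANXA1 lies on the minus strand at chrX:141584689-141584988, and the promoter of SPANXA2 has the same 300 bases. SPANXC lies on the minus strand at chrX:141242468-141242767 and shares 295 of 300 bases (98.3%) with SPANXA1. SPANXB1 was compared at a single shift without gaps, and 166 of 261 bases (63.6%) were the same. It carries an extra base inside the window, which puts all later bases out of register, so this share understates the likeness. The capitals in the SPANXC line mark the bases that differ.
SPANXA1: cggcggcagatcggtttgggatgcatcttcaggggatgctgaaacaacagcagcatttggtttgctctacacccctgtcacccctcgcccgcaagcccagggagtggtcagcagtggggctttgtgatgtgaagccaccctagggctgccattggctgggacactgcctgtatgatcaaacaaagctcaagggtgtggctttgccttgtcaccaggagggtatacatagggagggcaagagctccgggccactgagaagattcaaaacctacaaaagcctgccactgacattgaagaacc
SPANXC: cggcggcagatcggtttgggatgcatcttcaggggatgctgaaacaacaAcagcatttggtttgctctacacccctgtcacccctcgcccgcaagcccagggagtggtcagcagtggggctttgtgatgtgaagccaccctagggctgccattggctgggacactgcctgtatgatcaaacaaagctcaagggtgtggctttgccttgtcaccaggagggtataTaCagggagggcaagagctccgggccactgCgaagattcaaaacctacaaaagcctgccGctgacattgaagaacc

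**Figure D4:**
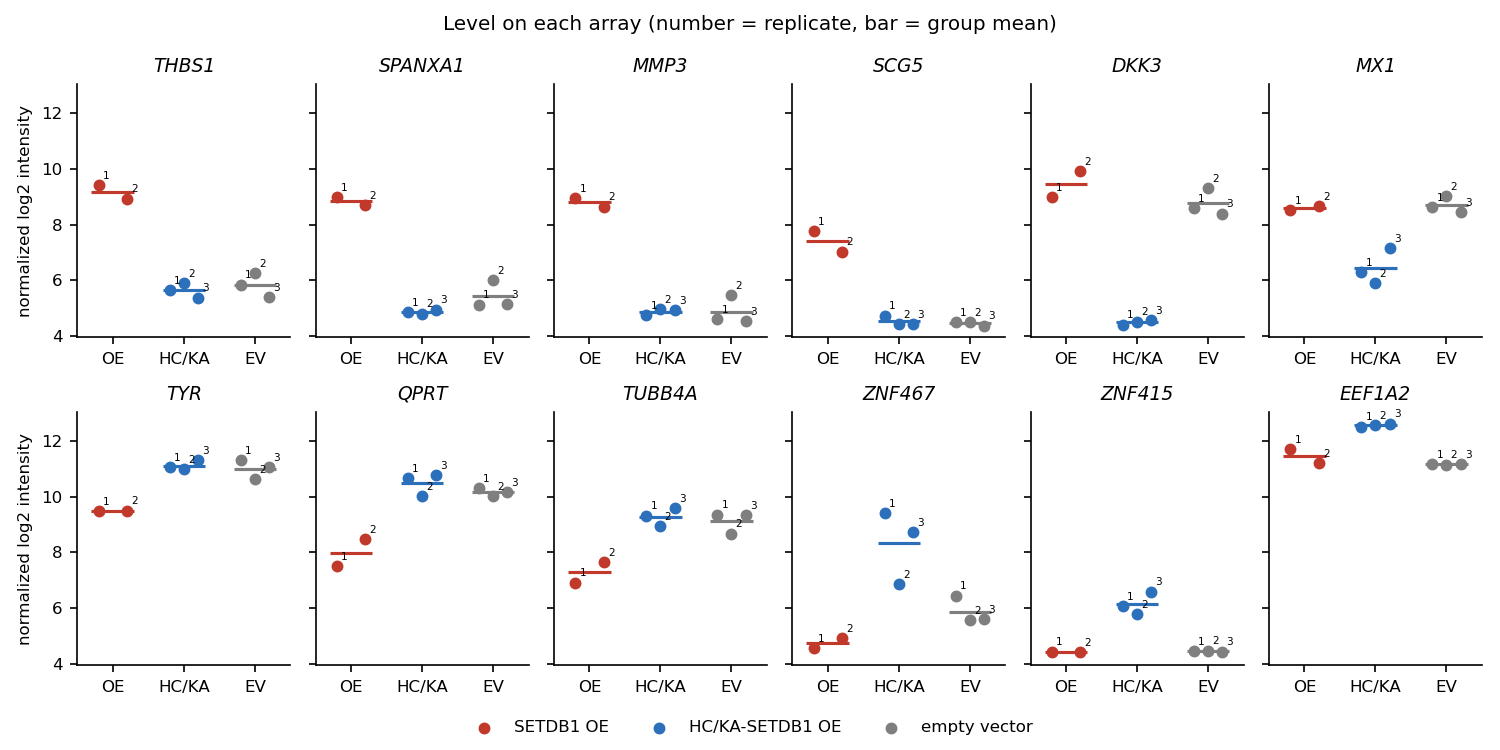
Log2 intensity (vertical axis) of selected called genes on every array, with 1 point per array and a bar at each group mean, for SETDB1 OE, HC/KA-SETDB1 OE and empty vector arrays. THBS1, SPANXA1 and MMP3 are high in both SETDB1 OE arrays alone, and DKK3 is low in all 3 HC/KA-SETDB1 OE arrays alone.

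Other genes differed because HC/KA-SETDB1 OE was low while SETDB1 OE and the empty vector were alike. One was DKK3, a secreted member of the Dickkopf family of Wnt antagonists, which read 8.99 and 9.91 in SETDB1 OE, 4.42, 4.53 and 4.58 in HC/KA-SETDB1 OE and 8.58, 9.32 and 8.40 with the empty vector. No HC/KA-SETDB1 OE array detected it, and it was at least 29.6-fold higher in SETDB1 OE. Another of its probes was likewise undetected in HC/KA-SETDB1 OE and was called higher, and one more, a dim probe, gave 0.02. MX1, an interferon-induced GTPase, read 8.51 and 8.65 in SETDB1 OE, 6.29, 5.90 and 7.16 in HC/KA-SETDB1 OE and 8.62, 9.01 and 8.45 with the empty vector. The HC/KA-SETDB1 OE arrays were the lowest, with a difference of 2.13 (SE 0.33, adjusted p = 0.0101). PAGE2, a cancer-testis gene of the X chromosome, was not detected in HC/KA-SETDB1 OE and was at least 7.25-fold higher in SETDB1 OE. Its SETDB1 OE arrays were uneven (6.29 and 8.55) and lay within or below the empty vector arrays (8.46, 9.85 and 7.35). OCIAD2, a mitochondrial and endosomal membrane protein, and COX7B2, a testis-type subunit of cytochrome oxidase, were also undetected in HC/KA-SETDB1 OE. They were at least 11.1-fold and 4.76-fold higher in SETDB1 OE, with the empty vector mean between. A second OCIAD2 probe was detected on 1 HC/KA-SETDB1 OE array, gave 1.38 (adjusted p = 0.0746) and was not called.

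One set of falls came from genes that were low in SETDB1 OE alone. QPRT, an enzyme of NAD synthesis, read 7.52 and 8.48 in SETDB1 OE, 10.67, 10.02 and 10.77 in HC/KA-SETDB1 OE and 10.29, 10.02 and 10.17 with the empty vector. The empty vector arrays lay beside the HC/KA-SETDB1 OE arrays, and the difference of -2.49 (SE 0.31, adjusted p = 0.00418) was called. The same layout held for TUBB4A (-1.99), a neuronal beta-tubulin, for PALM (-2.07), a membrane protein of neurites, for SV2A (-1.53), a synaptic vesicle protein, and for KREMEN2 (-1.49), a receptor for Dickkopf proteins. A second, dim probe of KREMEN2 gave -0.19.

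In another set of falls the HC/KA-SETDB1 OE arrays were high while SETDB1 OE and the empty vector were alike. ZNF415, a zinc finger protein, was detected on all 3 HC/KA-SETDB1 OE arrays (6.07, 5.79 and 6.59) and on no other array. It was at least 3.0-fold lower in SETDB1 OE. EEF1A2, an elongation factor of muscle and neurons, read 11.69 and 11.20 in SETDB1 OE, 12.51, 12.57 and 12.61 in HC/KA-SETDB1 OE and 11.17, 11.15 and 11.17 with the empty vector. The 3 HC/KA-SETDB1 OE arrays were the highest and very close to each other, and the difference of -1.12 (SE 0.20, adjusted p = 0.0180) was called. ZNF83 had the same layout (-1.91, SE 0.36).

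The steepest falls lay between these layouts and were more uneven within HC/KA-SETDB1 OE. ZNF467, a zinc finger protein, read 4.56 and 4.92 in SETDB1 OE, 9.40, 6.87 and 8.73 in HC/KA-SETDB1 OE and 6.45, 5.58 and 5.61 with the empty vector. HC/KA-SETDB1 OE replicate 2 was well below its 2 partners, with a difference of -3.59 (SE 0.59, adjusted p = 0.0120). RNASE1, a secreted ribonuclease, read 5.18 and 6.33 in SETDB1 OE, 9.61, 8.42 and 9.45 in HC/KA-SETDB1 OE and 8.58, 7.62 and 8.07 with the empty vector. It had a difference of -3.40 (SE 0.43, adjusted p = 0.00445), and again replicate 2 was the nearest to SETDB1 OE. PYROXD2, a mitochondrial oxidoreductase, had a difference of -3.19 (SE 0.55, adjusted p = 0.0139). The ADP-ribose hydrolase MACROD1 (-2.48), the kinase CDK18 (-2.44) and the fibrinogen-like protein FGL2 (-2.38) fell too. A second CDK18 probe gave -0.12 and was not called. MAPT, the microtubule protein tau, was at 8.69, 6.08 and 8.42 in HC/KA-SETDB1 OE, against 4.89 and 4.76 in SETDB1 OE, and its second, dim probe gave -0.16. AGT, the precursor of angiotensin, was not detected in SETDB1 OE and was at least 5.58-fold lower there. Also among the 15 largest falls were 4 enzymes, picked here after their values were seen: the mitochondrial dehydrogenase IDH2 fell by 2.39 on the log2 scale, the pyruvate dehydrogenase kinase PDK4 by 2.37, the oxoprolinase OPLAH by 2.35 and the secreted glutathione peroxidase GPX3 by 2.38. IDH2 read 6.66 and 6.77 in SETDB1 OE, 9.16, 8.91 and 9.25 in HC/KA-SETDB1 OE and 7.95, 7.75 and 8.61 with the empty vector. Its 3 groups formed 3 separate levels, with the empty vector in the middle.

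Genes of the dedifferentiated or invasive state of melanoma, in which cells lose pigment genes and gain mesenchymal ones, were higher in SETDB1 OE. Of 26 measured members 7 rose and 0 fell, which is 26.9% against 4.34% of all genes, and the median difference was 1.02, against -0.01 for all genes. The members of this and the other lists were chosen with earlier results of these data known. A share above that of all genes can come from that choice, so the shares only describe the lists. The list's per-array medians, taken relative to the HC/KA-SETDB1 OE mean, were 1.11 and 0.82 in SETDB1 OE, -0.21, -0.00 and 0.00 in HC/KA-SETDB1 OE, and 0.07, 0.23 and -0.03 in empty vector arrays. The SETDB1 OE arrays thus stood alone. TPM1, an actin-binding tropomyosin, read 10.55 and 10.49 in SETDB1 OE, 8.08, 7.27 and 7.50 in HC/KA-SETDB1 OE and 8.15, 8.74 and 8.09 with the empty vector. It had a difference of 2.90 (SE 0.28, adjusted p = 0.000854). Of 3 other TPM1 probes, 1 gave 2.82 and 2 dimmer ones gave -0.21 and -0.07. AXL, a receptor tyrosine kinase tied to drug resistance, read 10.92 and 10.56 in SETDB1 OE, 9.81, 9.44 and 9.18 in HC/KA-SETDB1 OE and 9.56, 9.64 and 9.46 with the empty vector. Both SETDB1 OE arrays were above all others, with a difference of 1.26 (SE 0.23, adjusted p = 0.0184), and a second probe gave 1.02. The other risers were ANKRD1, the ligand WNT5A (2.18), the ectonucleotidase NT5E (2.05), the smooth muscle protein TAGLN (2.04) and the transcription factor SOX9, which was not detected in HC/KA-SETDB1 OE and was at least 1.94-fold higher. Without either SETDB1 OE array 2 of the 26 were called, without HC/KA-SETDB1 OE replicate 3 there were 3, and without HC/KA-SETDB1 OE replicate 2 there were 11.

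Genes of the pigment cell lineage leaned the other way. Of 24 measured members 0 rose and 2 fell (8.33%, against 4.34% of all genes), with a median of -0.34. Differences were negative for 19 members and positive for 5. The per-array medians overlapped, at -0.49 and -0.14 in SETDB1 OE, against 0.18, -0.22 and 0.07 in HC/KA-SETDB1 OE. TYR, which catalyses the limiting step of melanin synthesis, read 9.48 and 9.50 in SETDB1 OE, 11.05, 10.99 and 11.30 in HC/KA-SETDB1 OE and 11.32, 10.62 and 11.04 with the empty vector. Both SETDB1 OE arrays were below the 6 others, with a difference of -1.62 (SE 0.24, adjusted p = 0.00772). PPARGC1A, which MITF drives in melanoma and which coactivates mitochondrial genes, had a difference of -2.48 (adjusted p = 0.0240), with HC/KA-SETDB1 OE replicates of 8.99, 7.40 and 7.94. MITF, the master regulator of the lineage, had a difference of -1.21 (SE 0.31, adjusted p = 0.0547) and did not pass. A second MITF probe, detected on no HC/KA-SETDB1 OE array, gave 0.30 and was not called. BCL2A1, also on the list, went the other way (0.92, adjusted p = 0.0504) and did not pass either. The marker MLANA gave 0.07. TYRP1, tyrosinase-related protein 1, had means of 7.84 in SETDB1 OE, 9.78 in HC/KA-SETDB1 OE and 9.60 with the empty vector (adjusted p = 0.0600). PMEL, the fibril protein of melanosomes, had means of 11.2 in SETDB1 OE, 11.3 in HC/KA-SETDB1 OE and 13.1 with the empty vector, so the constructs were close to each other and below the vector. Without either SETDB1 OE array no member was called, without HC/KA-SETDB1 OE replicate 3 there was 1, and without HC/KA-SETDB1 OE replicate 2 there were 6 falls.

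Inflammatory cytokines and chemokines had 17 measured members, of which 3 rose and 0 fell (17.6%, against 4.34% of all genes). The median was 0.99. Their per-array medians were 1.38 and 0.59 in SETDB1 OE, against -0.03, 0.01 and 0.11 in HC/KA-SETDB1 OE and -0.25, 0.27 and -0.07 with the empty vector. IL6, an inflammatory cytokine, read 9.18 and 6.92 in SETDB1 OE, 4.52, 4.47 and 4.82 in HC/KA-SETDB1 OE and 4.38, 5.65 and 4.66 with the empty vector. SETDB1 OE replicate 1 was far above replicate 2, and both were above the 6 others, with a difference of 3.44 (SE 0.56, adjusted p = 0.0114). IL1B, another such cytokine, was more even, at 6.89 and 6.60 in SETDB1 OE, against 4.55, 4.96 and 4.89 in HC/KA-SETDB1 OE, a difference of 1.94. PTGS2, the inducible cyclooxygenase, differed by 1.84, and the chemokine CCL2, with 1.96, lay just outside the threshold (adjusted p = 0.0504). Without SETDB1 OE replicate 1 none of the 17 rose and 1 fell, while without replicate 2 there were 3 rises. Among 19 NF-kappaB subunits and feedback targets 2 rose and 0 fell (10.5%), with a median of 0.42. The risers were the deubiquitinase TNFAIP3 (1.85) and the inhibitor NFKBIE (1.71). The list's medians were 0.72 and 0.08 in SETDB1 OE, so replicate 1 again stood higher.

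The promoters of genes from these lists are shown with matches to 3 motifs, as a description of sequence only. The motifs were AP-1 (TGANTCA), the NF-kappaB consensus and the M-box bound by MITF (TCATGTG), searched on both strands. No match overlapped another. Among all 35116 promoters of the table AP-1 was found in 7.71%, NF-kappaB in 5.91% and the M-box in 2.92%. Of the genes searched, 6 of 18 promoters held at least 1 of the 3 motifs. The share of all promoters with at least 1 of the 3 was not counted, so the 6 of 18 cannot be set against these single-motif shares. IL6 (plus strand, chr7:22726950-22727249) held an NF-kappaB match -73 bases from the start, ANKRD1 (minus strand, chr10:90921038-90921337) an AP-1 match at -195, TYR (plus strand, chr11:89177625-89177924) an M-box match at -105, and ZNF83 an AP-1 match at -221. The promoters of ZNF467 and ZNF415, which fell, held NF-kappaB matches at -216 and -204. THBS1 (plus strand, chr15:39580829-39581128) held none and is shown for its place among the rises. The capitals mark the matches.
IL6: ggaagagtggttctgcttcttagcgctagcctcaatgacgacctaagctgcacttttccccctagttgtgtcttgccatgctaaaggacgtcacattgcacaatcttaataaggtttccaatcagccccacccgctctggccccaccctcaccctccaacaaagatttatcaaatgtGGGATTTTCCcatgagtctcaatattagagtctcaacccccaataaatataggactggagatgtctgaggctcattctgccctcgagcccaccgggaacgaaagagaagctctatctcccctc
ANKRD1: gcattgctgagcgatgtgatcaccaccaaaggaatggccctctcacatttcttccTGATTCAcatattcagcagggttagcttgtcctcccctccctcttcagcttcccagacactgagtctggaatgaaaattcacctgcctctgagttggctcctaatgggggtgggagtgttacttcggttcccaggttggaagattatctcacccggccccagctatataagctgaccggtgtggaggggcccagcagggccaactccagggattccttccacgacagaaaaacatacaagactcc
TYR: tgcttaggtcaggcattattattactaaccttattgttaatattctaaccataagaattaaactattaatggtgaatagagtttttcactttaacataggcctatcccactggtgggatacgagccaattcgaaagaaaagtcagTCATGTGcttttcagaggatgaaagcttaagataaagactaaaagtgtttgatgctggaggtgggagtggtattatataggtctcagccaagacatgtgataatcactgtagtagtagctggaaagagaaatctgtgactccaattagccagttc
THBS1: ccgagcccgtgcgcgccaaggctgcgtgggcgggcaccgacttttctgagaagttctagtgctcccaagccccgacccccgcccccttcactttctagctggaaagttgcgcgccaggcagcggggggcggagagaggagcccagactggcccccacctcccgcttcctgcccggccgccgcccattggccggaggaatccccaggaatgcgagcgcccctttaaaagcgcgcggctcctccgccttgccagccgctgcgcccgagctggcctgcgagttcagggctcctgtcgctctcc

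Matrix and protease genes differed gene by gene. Of 29 thrombospondins and matrix genes 2 rose and 1 fell (10.3%, against 4.34% of all genes), with a median of 0.03. Beside THBS1, the proteoglycan DCN rose and was at least 2.16-fold higher, being undetected in HC/KA-SETDB1 OE. THBS2, the closest relative of THBS1, read 4.74 and 5.02 in SETDB1 OE, 7.16, 6.15 and 7.31 in HC/KA-SETDB1 OE and 5.93, 5.36 and 5.37 with the empty vector. It was lowest in SETDB1 OE, with a difference of -1.99 (SE 0.34, adjusted p = 0.0139), so the 2 thrombospondins moved in opposite directions. Of 25 proteases and inhibitors 4 rose and 0 fell (16%, against 4.34% of all genes), with a median of 0.13. Beside MMP3, these were the collagenase MMP1 (2.60), the stromelysin MMP10 (at least 1.58-fold, detected on the SETDB1 OE arrays alone and so tested through them) and the transmembrane protease ADAM19 (1.85). MMP1 was uneven, at 4.52, 6.39 and 4.69 in HC/KA-SETDB1 OE, against 7.34 and 8.26 in SETDB1 OE. Of 24 integrins and adhesion genes 2 rose and 1 fell (12.5%), with a median of 0.19: the integrin chains ITGB3 (1.25) and ITGB8 (1.14) rose and ITGA9 (-1.21) fell.

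Signalling lists held rises and falls side by side. Of 17 Wnt antagonists and targets 4 rose and 1 fell (29.4%, against 4.34% of all genes), with a median of -0.01. DKK1, a Wnt antagonist that binds the LRP coreceptors, read 10.32 and 10.22 in SETDB1 OE, 6.09, 7.28 and 6.12 in HC/KA-SETDB1 OE and 6.70, 8.43 and 6.50 with the empty vector. HC/KA-SETDB1 OE replicate 2 and empty vector replicate 2 were each the highest of their group but below SETDB1 OE, with a difference of 3.77 (SE 0.53, adjusted p = 0.00705). DKK3, WNT5A and the Wnt-responsive transcription factor LEF1 (0.97) rose too, and KREMEN2 fell. Of 22 TGF-beta and BMP response genes 2 rose and 0 fell (9.09%), with a median of 0.33: THBS1 and the feedback inhibitor PMEPA1 (2.03). Of 21 MAPK output genes 1 rose and 1 fell (9.52%), with a median of 0.23. The phosphatase DUSP5 rose (0.95) and the feedback inhibitor SPRY1 fell (-1.17), while the transcription factor FOSL1 gave 1.12 and lay just outside the threshold. Among 11 insulin-like growth factor binding proteins 1 rose and 1 fell (18.2%), with a median of 0.22. IGFBP3, the main carrier in serum, read 11.58 and 11.59 in SETDB1 OE, 8.62, 9.60 and 9.61 in HC/KA-SETDB1 OE and 10.94, 10.83 and 10.55 with the empty vector. Both SETDB1 OE arrays were the highest, with a difference of 2.31 (SE 0.30, adjusted p = 0.00474), and a second probe gave 2.30. IGFBP2 went the other way (-1.39).

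Genes of oxidative stress and iron had 20 measured members, of which 5 rose and 0 fell (25%, against 4.34% of all genes), with a median of 0.46. HMOX1, the inducible heme oxygenase, read 9.83 and 8.32 in SETDB1 OE, 6.72, 7.02 and 6.63 in HC/KA-SETDB1 OE and 6.70, 6.69 and 6.68 with the empty vector. The 6 arrays outside SETDB1 OE lay close together, below both SETDB1 OE arrays, and the difference of 2.29 (SE 0.36, adjusted p = 0.0104) was called. The metallothionein MT1E (1.74), the glutathione synthesis subunit GCLM (1.39), the cystine transporter SLC7A11 (at least 2.42-fold) and the reductase AKR1B10 (at least 2.08-fold) rose as well. A second probe of GCLM gave -0.34. Leaving out either SETDB1 OE array gave 1 call among the 20, and leaving out any 1 empty vector array, or HC/KA-SETDB1 OE replicate 3, gave 3. Among 20 ATF4 targets and serine synthesis genes 3 rose and 0 fell (15%), with a median of 0.20: the serine phosphatase PSPH (1.52), SLC7A11 and the pseudokinase TRIB3 (0.98). Of 29 hypoxia and glycolysis genes 0 rose and 1 fell, with a median of 0.08. That 1 was the aldolase ALDOC, which read 9.74 and 9.73 in SETDB1 OE, 11.93, 11.39 and 11.67 in HC/KA-SETDB1 OE and 10.92, 10.46 and 10.73 with the empty vector. The groups formed separate levels, with a difference of -1.93 (SE 0.23, adjusted p = 0.00280).

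Vesicle, synaptic and neuronal genes split. Of 23 measured members 3 rose and 6 fell (39.1%, against 4.34% of all genes), with a median of 0.21. These members too were chosen with earlier results of these data known, which by itself can raise the share. NPTX1, a secreted pentraxin of synapses, read 10.90 and 11.63 in SETDB1 OE, 6.98, 7.74 and 7.23 in HC/KA-SETDB1 OE and 9.11, 10.40 and 9.44 with the empty vector. The 3 groups were ordered with SETDB1 OE on top and HC/KA-SETDB1 OE lowest, with a difference of 3.95 (SE 0.38, adjusted p = 0.000854). SCG2 (2.46), a secretory granule protein, and SCG5 rose too, SCG5 having entered the test through the SETDB1 OE arrays alone. The 6 falls were MAPT, TUBB4A, PALM, EEF1A2, SV2A and MAP2 (-1.71), a dendritic microtubule protein. Other MAP2 probes gave -2.05, which was called, and 0.23 and 0.03, which were not. Without SETDB1 OE replicate 1 none of the 6 falls was called and 2 rises were. A list of 51 RAB small GTPases, which direct vesicle traffic, held 1 rise and 2 falls (5.88%), with a median of -0.00. RAB27B, which drives exocytosis, read 7.12 and 7.16 in SETDB1 OE, 4.44, 4.70 and 4.52 in HC/KA-SETDB1 OE and 5.10, 5.26 and 4.91 with the empty vector. It had a difference of 2.59 (SE 0.20, adjusted p = 0.000224). RAB26 (-2.74) and RAB6B (-1.63) fell. Of 23 neural crest and glial genes 1 rose and 2 fell (13%), with a median of -0.15. SOX9 rose, and S100B (-1.36), the glial calcium-binding protein, and the receptor NOTCH3 (-1.53) fell. S100B was also the only call among 15 S100 genes (6.67%), whose median was 0.24.

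Cell cycle lists had overlapping levels in the groups. Of 39 DNA replication and S phase genes 1 rose and 0 fell (2.56%, against 4.34% of all genes), with a median of 0.36. The per-array medians were 0.48 and 0.27 in SETDB1 OE, -0.43, 0.43 and 0.04 in HC/KA-SETDB1 OE and 0.36, 0.42 and 0.42 with the empty vector. SETDB1 OE lay beside the empty vector, HC/KA-SETDB1 OE replicate 2 lay among both, and HC/KA-SETDB1 OE replicate 1 lay lowest. RRM2, a subunit of ribonucleotide reductase, was the gene that rose, at 7.17 and 7.11 in SETDB1 OE, against 4.91, 5.47 and 4.81 in HC/KA-SETDB1 OE (2.08, SE 0.27). Without HC/KA-SETDB1 OE replicate 2 there were 7 rises on the list. Of 33 mitosis and G2/M genes 0 passed, with a median of 0.13. Their per-array medians were 0.16 and 0.06 in SETDB1 OE, -0.11, 0.32 and -0.17 in HC/KA-SETDB1 OE and 0.11, 0.15 and 0.37 with the empty vector, so the groups overlapped, and BIRC5 (1.31, adjusted p = 0.0554) came nearest. None of 20 p53 targets passed by its brightest probe, and their median was -0.04. The brightest probe of AEN, a gene of this list, gave 0.61, and its second probe gave 0.97 and was called.

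None of 30 SETDB1 partners and histone methylation genes passed, with a median of -0.01, the same as for all genes. UBE2K, a ubiquitin-conjugating enzyme, came nearest, with 0.91, and lay just outside the threshold. A second UBE2K probe gave 0.17. Of 380 ZNF genes 1 rose and 9 fell (2.63%), below the 4.34% of all genes, with a median of -0.11. ZNF583 rose (0.90). Beside ZNF467, ZNF415 and ZNF83, the falls were ZNF609 (-1.22), ZNF684 (-1.42), ZNF513 (-1.02), ZNF875 (-1.02), ZNF815P (-0.93) and ZNF224 (-0.90). Without either SETDB1 OE array none of the 380 was called, and without HC/KA-SETDB1 OE replicate 2 there were 21 falls and 3 rises. Of 26 HOX genes HOXB8 alone was called (-0.91), with a median of -0.17. None of 24 clustered protocadherins (median -0.09) and none of 23 imprinted genes (median 0.09) passed by its brightest probe. Other probes of the imprinted gene GRB10 gave 1.16, which was called, and -0.04, which was not. Of 47 clustered histone genes H4C8 alone rose (1.83), with a median of 0.22.

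Among 19 GAGE, PAGE and XAGE genes, also of the germ line, 2 rose and 0 fell (10.5%, against 4.34% of all genes), while the median was -0.52. The risers were PAGE2 and PAGE1 (at least 3.03-fold). PAGE2B, with 2.39 (adjusted p = 0.0528), did not pass. GAGE12E read 11.04 and 9.90 in SETDB1 OE, 11.61, 11.71 and 11.29 in HC/KA-SETDB1 OE and 9.96, 9.73 and 9.89 with the empty vector. HC/KA-SETDB1 OE was highest, SETDB1 OE replicate 2 lay beside the empty vector, and the difference of -1.07 (SE 0.30, adjusted p = 0.0748) did not pass. GAGE genes are nearly identical in sequence, so their probes do not count as separate measurements. None of 23 MAGE and other cancer-testis genes passed, with a median of -0.02.

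Of 29 interferon response genes MX1 alone was called (3.45%, against 4.34% of all genes), with a median of 0.12. OAS2 (1.69, adjusted p = 0.0504) and IFI6 (-1.20, adjusted p = 0.0599) pointed in opposite directions without passing. A second IFI6 probe gave -0.42. None of 21 antigen presentation genes passed, and their median was -0.35. The list's medians were -0.38 and -0.36 in SETDB1 OE, -0.01, -0.15 and 0.25 in HC/KA-SETDB1 OE and -0.36, -0.25 and -0.26 with the empty vector, so SETDB1 OE lay beside the vector and HC/KA-SETDB1 OE higher. HLA-G (-1.01, adjusted p = 0.0574) came nearest. Without HC/KA-SETDB1 OE replicate 2, 2 members fell.

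Housekeeping lists were close to the middle. Of 75 oxidative phosphorylation genes 2 rose and 1 fell (4%, against 4.34% of all genes), with a median of -0.03. COX7B2 and NDUFB1 (0.77) rose and NDUFA7 (-0.79) fell. Of 71 ribosomal protein genes RPL34 (1.68) and RPS7 (1.36) rose (2.82%), with a median of 0.04. None of 27 cholesterol and fatty acid synthesis genes passed (median -0.12), and SREBF1 (-1.24, adjusted p = 0.0580) came nearest.

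Markers of other cell types were detected in part. Of 12 fibroblast markers, 7 and 8 were detected on the SETDB1 OE arrays, 4 to 5 on the HC/KA-SETDB1 OE arrays and 6 to 9 on the empty vector arrays. Of the 9 measured 1 rose (DCN, 11.1%, against 4.34% of all genes called), with a median of 0.15. Among those not passing the filter were PDGFRA, THY1 and PDPN. Several of these markers, among them the collagen gene COL1A2 (-1.26, adjusted p = 0.105), are also expressed by melanoma cells. A second COL1A2 probe gave -0.19. None of the 4 measured epithelial markers (median 0.32) and none of the 4 endothelial ones (median -0.11) was called, and EPCAM, CDH1, PECAM1 and CDH5 did not pass the filter. Of 7 blood and immune markers CD14 alone was called and fell (-1.08, 14.3% of the list), with a median of 0.14, and PTPRC and CD3D did not pass. The part of other cell types in the results was not tested.

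**Figure D5:**
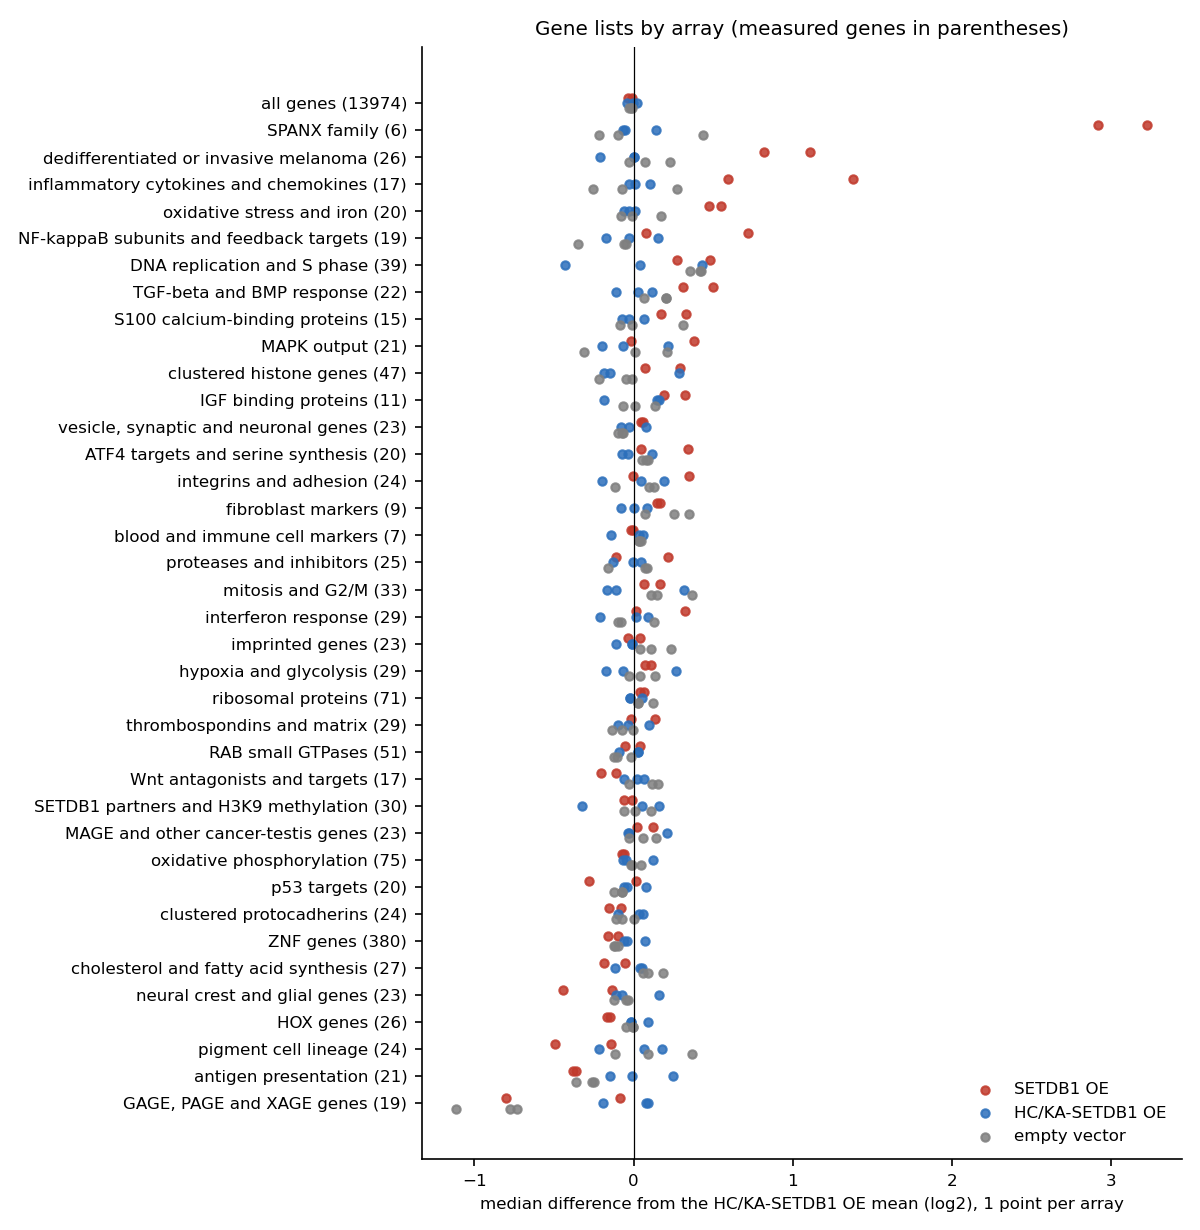
Median difference from the HC/KA-SETDB1 OE mean on the log2 scale (horizontal axis) for each gene list (rows), with 1 point per SETDB1 OE, HC/KA-SETDB1 OE and empty vector array. SPANX genes (3.23 and 2.92), invasive genes (1.11 and 0.82) and cytokines (1.38 and 0.59) have both SETDB1 OE arrays to the right of all others. The epithelial and endothelial lists, with 4 measured genes each, are not drawn.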

How the data were processed

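Bead intensities were deposited by the authors as linear values that, per the file headers, had not been normalized. The authors deposited a detection p-value with each, made in a way not stated in the sources used here. A log2 table, also deposited by the authors, differed from quantile-normalized log2 intensities by a median of 0.0145. It had the same median (6.53) in every column and followed each array's own raw values (lowest r = 0.9996), so it was taken as log2 with no centring, running in the usual direction, and it served as an alternative.

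Of 48107 probes 5 with a missing cell were dropped. GEO's platform annotation, updated through RefSeq gene identifiers (GRCh38.p14), gave 1 symbol to 30110 probes, several to 8 and none to 17984, and 30071 matched the gene table. Intensities were normalized with neqc (offset 16) in limma 3.58.1 under R 4.3.3. The filter on detection p (under 0.05, at least 2 arrays) passed 26689 probes and gave 13974 genes, each read from its brightest probe (3815 had several). The groups were compared with lmFit, contrasts.fit and eBayes on all 8 arrays with a term per group, two-sided, Benjamini-Hochberg adjusted over all genes and called under 0.05. The scripts were tested on simulated data. Gene lists have counts and medians only, and no test. Other probes of a gene were fitted over all passing probes.

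Named genes were SETDB1, THBS1, the 15 largest rises and 15 largest falls whose arrays do not overlap, every called list member (for lists with over 10, the 6 with the smallest adjusted p) and up to 4 further members per list by adjusted p. SPANXN3, the lineage markers, and the genes at the threshold were added to it. The members and lists were chosen with earlier results of these data known. Where no array of a group detected a gene, a fold is a bound: the bright group's mean against, per array, the higher of the lowest detected signal and the gene's own value. The alternatives were other normalizations, filters, probe rules, weights, a mean-variance trend, a replicate block and leaving out each array. The number of arrays limits the precision. The R package for reading files was data.table (1.17.8). Figures used matplotlib 3.10.9 with Python 3.11.15.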

Additional observations from a re-analysis of the deposited data

How the results depend on the processing

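Leaving out 1 array at a time moved the total between 41 and 1315 calls, the rises between 34 and 616 and the falls between 7 and 699. With only the 5 arrays of the 2 constructs there were 168 calls (94 rose, 74 fell), without the detection filter 274 (142 rose, 132 fell) and with array weights 1159 (512 rose, 647 fell). Leaving out HC/KA-SETDB1 OE replicate 2 together with empty vector replicate 2, chosen after seeing the data, gave 849 calls, of which 478 fell. Quantile normalization without background correction (513), the authors' log2 table (464), scaling to the 75th percentile (517), a detection p under 0.01 (644), the mean of a gene's probes (650) and a mean-variance trend (681) stayed within 1.5 times of 606. The constructs share replicate numbers 1 and 2. Deviations of same-numbered arrays correlated at 0.116 and 0.031 between the constructs and at 0.119 to 0.459 for the 5 pairs with the empty vector. All of these values were positive. The main fit did not take the numbers as pairs, which was a choice. Whether same-numbered arrays share an effect was not tested. With the replicate block there were 665 calls (310 rose, 355 fell), 495 of them among the 606. Of 96 named genes that were called, 16 were called under all 19 alternatives and 0 changed sign. Of 741 list medians 45 moved by more than the spread between replicates. The reasons for these changes were not tested, beyond the fewer arrays or the larger number of genes that a setting has by construction. For dim genes signal over background limits the size of a difference, and 2 arrays of SETDB1 OE limit every result.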

Other observations

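Of the 606 genes called in the comparison of the constructs, 25 were called under every one of the 19 alternatives, of which 20 rose and 5 fell. Of these, 16 are described above and 9 are not, and 8 of the 9 are given here, chosen after their values were seen. IL7R, the receptor chain for the cytokine interleukin-7, read 7.63 and 7.29 in SETDB1 OE, 4.55, 4.51 and 4.95 in HC/KA-SETDB1 OE and 4.76, 5.29 and 5.02 with the empty vector. Both SETDB1 OE arrays stood above all others, with a difference of 2.78 (SE 0.24, adjusted p = 0.000339). CD24, a glycoprotein of the cell surface, read 7.61 and 7.16 in SETDB1 OE, 4.99, 5.01 and 4.98 in HC/KA-SETDB1 OE and 5.26, 5.05 and 4.81 with the empty vector. It had a difference of 2.39 (SE 0.22, adjusted p = 0.000497). UCA1, a long noncoding RNA known from bladder cancer, and TAC1, which encodes the neuropeptide substance P, had the same layout. UCA1 differed by 2.65 (SE 0.30) and TAC1 by 2.18 (SE 0.23).

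In a second layout HC/KA-SETDB1 OE was low and the empty vector was like SETDB1 OE. FAM133A, a gene of the X chromosome, read 6.75 and 6.89 in SETDB1 OE, 4.74, 4.73 and 5.13 in HC/KA-SETDB1 OE and 6.81, 7.03 and 6.68 with the empty vector. ARMCX1, an X-linked armadillo-repeat protein that moves mitochondria in axons, read 6.14 and 7.16 in SETDB1 OE, 4.40, 4.41 and 4.40 in HC/KA-SETDB1 OE and 6.73, 6.42 and 6.65 with the empty vector. The HC/KA-SETDB1 OE arrays were the 3 lowest for both, with a difference of 1.96 (SE 0.21, adjusted p = 0.00195) for FAM133A. ARMCX1 was not detected on any of them and was at least 4.27-fold higher in SETDB1 OE. Among the falls, the sugar epimerase RENBP (-2.12, SE 0.24) and the secreted protein C1QTNF6 (-2.29, SE 0.25) had the empty vector between the constructs.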
